A study of Mus musculus with 2 samples.

Results

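Leukocyte adhesion molecules and immune checkpoint ligands were followed in endothelial cells of the mouse liver by single-cell RNA-seq. The genes were Icam1, Icam2, Vcam1, Sele, Selp, Cd274, Pdcd1lg2, Clec4g and Vsir, 9 of the 32285 genes counted. They were chosen by name for what their products do, and each matched 1 row of the count tables. The study compared liver endothelial cells with and without the transcription factor c-Maf. In the Maf LSEC-KO group, Clec4g-iCre tg/wt mice carried Maf fl/fl. The labels call the control group WT, whereas the study's methods describe littermates without the Cre transgene that were Maf fl/fl or Maf fl/wt, so that floxed alleles were present in both groups. The study used female and male mice of 3 and 6 months, and the age and sex of the pooled animals are not stated. Each group was 1 library from a pool of 3 mice, isolated with magnetic beads against CD146 after enzymatic digestion of the liver. Reads came from the 3′ ends of transcripts, and each captured molecule was counted once through its unique molecular identifier (UMI). The Cre transgene is driven by Clec4g, which is itself among the 9 genes, and whether transcripts of the transgene added to its count was not tested.

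Leukocytes leave the blood in steps. Selectins on the endothelium (Sele, Selp) bind sugar-bearing ligands and let leukocytes roll, after which ICAM-1, ICAM-2 and VCAM-1 bind leukocyte integrins and hold the cells. In the liver sinusoid, where flow is slow and vessels are narrow, adhesion depends little on selectins, and endothelial cells can also restrain T cells through checkpoint ligands such as PD-L1 (Cd274), PD-L2 (Pdcd1lg2), LSECtin (Clec4g) and VISTA (Vsir).

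The promoters of Icam1, Sele and Selp are shown because these adhesion genes are known for induction by inflammatory signals and because their levels moved in different ways. The 250 bases before the RefSeq start are given from GRCm38.p6, read 5′ to 3′ on the plus strand, from chr9:21015690-21015939, chr1:164047984-164048233 and chr1:164115014-164115263. Capitals mark matches to the motifs searched.
Icam1: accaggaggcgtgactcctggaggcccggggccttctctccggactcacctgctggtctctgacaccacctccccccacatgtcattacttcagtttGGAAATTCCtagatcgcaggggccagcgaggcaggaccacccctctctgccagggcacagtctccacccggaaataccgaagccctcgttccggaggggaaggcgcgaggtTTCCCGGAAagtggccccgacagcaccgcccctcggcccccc
Sele: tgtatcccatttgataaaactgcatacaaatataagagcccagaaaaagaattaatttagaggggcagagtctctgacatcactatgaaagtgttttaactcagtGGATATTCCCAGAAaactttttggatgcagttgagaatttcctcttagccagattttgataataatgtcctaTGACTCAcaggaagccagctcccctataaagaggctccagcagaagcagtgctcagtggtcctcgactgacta
Selp: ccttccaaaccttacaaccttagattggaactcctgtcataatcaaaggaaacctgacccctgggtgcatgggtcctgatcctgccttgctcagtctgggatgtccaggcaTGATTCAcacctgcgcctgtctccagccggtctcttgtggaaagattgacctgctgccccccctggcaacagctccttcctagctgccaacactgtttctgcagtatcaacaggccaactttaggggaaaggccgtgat
The motifs, searched on both strands, were an NF-kB-like GGANNTTCC, a GAS element TTCNNNGAA, an AP-1 site TGANTCA, a Maf core TGCTGA and an interferon response element (GAAA, any 2 bases, GAAA). They were chosen with the sequences in view. Icam1 held the NF-kB-like letters 153 to 145 bases and the GAS letters 42 to 34 bases before the start. Sele held NF-kB-like letters at 145 to 137 bases, overlapping GAS letters at 140 to 132 bases, and AP-1 letters at 73 to 67 bases before the start. Selp held AP-1 letters alone, 139 to 133 bases before the start. Of the other promoters read, Vsir held the Maf core 69 to 64 bases before the start on the minus strand, and Cd274, Pdcd1lg2 and Clec4g held none of the 5 motifs. Among 32851 promoters of the same length, 3.59% held the NF-kB-like letters, 7.02% the GAS letters, 6.75% the AP-1 letters, 16.1% the Maf core and 2.98% the letters of the interferon response element. A match describes letters in this window and not binding.

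In control, 47681895 UMIs fell on 5664 barcodes, and in Maf LSEC-KO 89872764 UMIs fell on 7091. The libraries shared 10 barcode sequences, of which 3 were endothelial cells. After filters, clustering and doublet removal, 3674 of 4736 control cells and 4252 of 5115 Maf LSEC-KO cells were endothelial. A Vwf UMI was found in 155 control cells, 4.22% (exact binomial 95% interval 3.59 to 4.92), and in 1135 Maf LSEC-KO cells, 26.7% (25.4 to 28.1). Vwf encodes von Willebrand factor, which the study used to set aside endothelium of larger vessels. The Vwf− cells had medians of 9316 and 14220 UMIs and the Vwf+ cells medians of 11804 and 15093 UMIs in control and Maf LSEC-KO. With each cell thinned to 3700 UMIs, a Vwf UMI was found in 2.99% of control and 15.3% of Maf LSEC-KO endothelial cells. Maf stood at 3524 CPM in Vwf− control cells and at 123 CPM in Vwf− Maf LSEC-KO cells (CPM, UMIs of a gene per 1000000 UMIs, with mitochondrial and ribosomal protein genes left out). Of 14 endothelial markers, 14 were found in at least 50% of the control cells with and without Vwf and of the Vwf− Maf LSEC-KO cells, and 13 in the Vwf+ Maf LSEC-KO cells. With 1 library per condition there is no replicate and no test, so every interval below is exact for counting error only and says nothing on the spread between mice.

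In Vwf− endothelial cells, the integrin ligands Icam1, Icam2 and Vcam1 were each about 2-fold higher in Maf LSEC-KO than in control, Clec4g was about 2-fold lower, and Cd274 and Vsir lay within 0.2 of no difference on the log2 scale. Of the 9 genes, 6 reached 10 CPM in either group. Counting genes at least 2-fold apart, 2 of these 6 were higher, Icam1 and Vcam1, against 10.4% of 9299 genes, and 0 were lower, against 4.83%. No p stands behind these counts because a single library represents each condition. The median log2 ratio of all genes tested was 0.13, and relative to this shift the ratios were 0.92 for Icam1, 0.80 for Icam2, 1.01 for Vcam1, −0.15 for Cd274, −1.11 for Clec4g and −0.31 for Vsir.

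**Figure D1:**
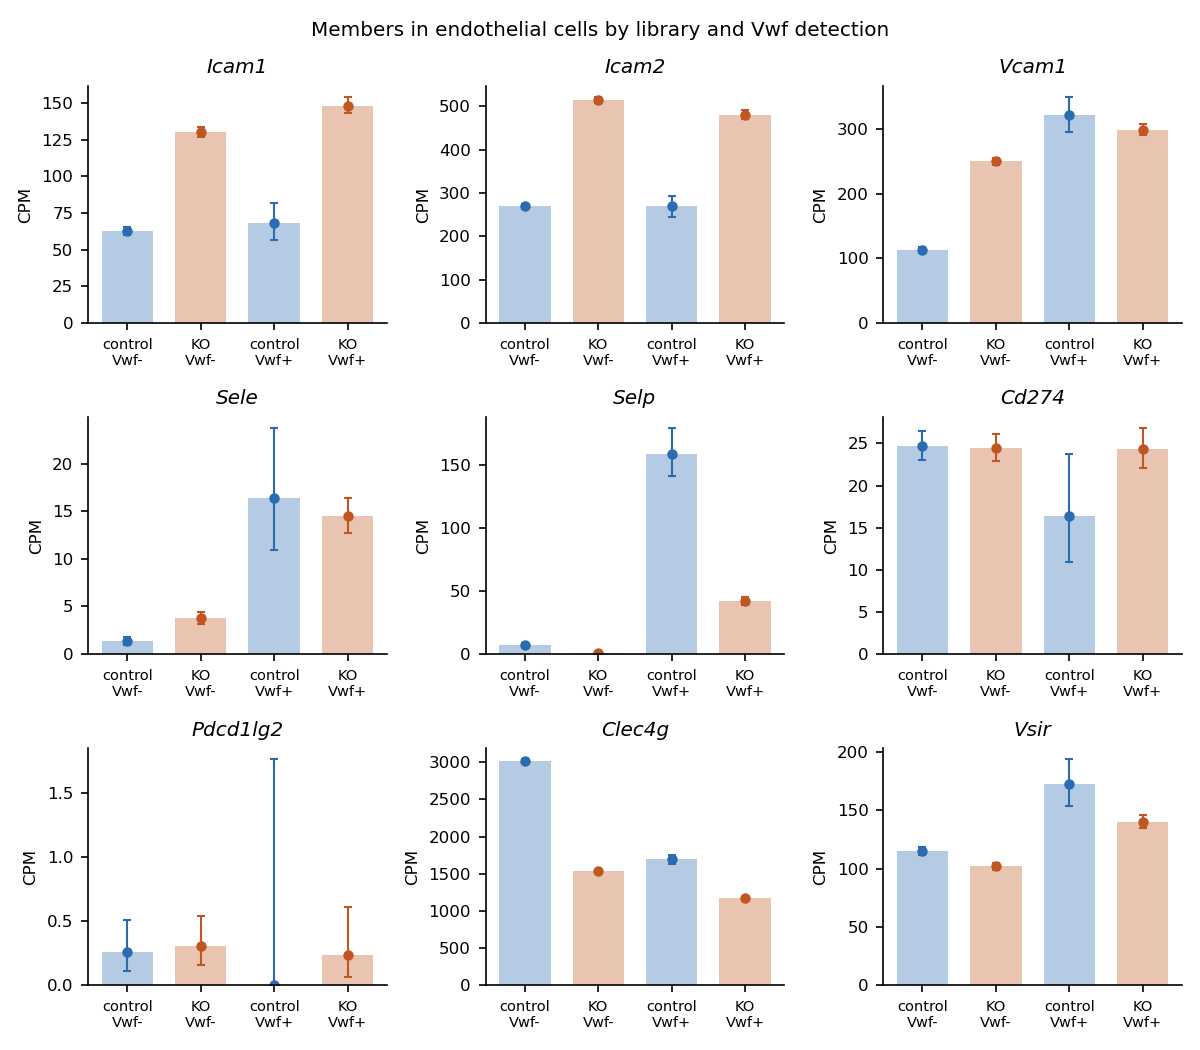
Level in CPM of the 9 genes in endothelial cells of the control and Maf LSEC-KO libraries without and with a Vwf UMI (KO, Maf LSEC-KO), as bars and points with exact Poisson 95% intervals and, at 0 UMIs, a bar up to the limit of 3 counts. Icam1 and Icam2 are higher in Maf LSEC-KO cells on both sides of the Vwf gate, whereas Vcam1 stands at 113 and 250.3 CPM in Vwf− and at 321 and 298 CPM in Vwf+ cells.

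Icam1 (9:21015985-21028817, plus strand, mm10) encodes ICAM-1, the ligand of the leukocyte integrins LFA-1 and Mac-1. Its level was 62.7 CPM (59.9 to 65.5) in Vwf− control cells, 68.5 CPM (56.6 to 82.0) in Vwf+ control cells, 130.3 CPM (127 to 134) in Vwf− Maf LSEC-KO cells and 148 CPM (143 to 154) in Vwf+ Maf LSEC-KO cells. The intervals of the control groups overlapped and lay below both Maf LSEC-KO groups. Between the conditions (Maf LSEC-KO over control, here and below) the log2 ratio was 1.06 (0.98 to 1.13) without and 1.12 (0.85 to 1.40) with Vwf. The share of Vwf− cells with an Icam1 UMI was 31.9% in control and 58.0% in Maf LSEC-KO. In T/NK cell-like cells, which also carry Icam1 of their own, it was 34.5% and 38.3% at median depths of 6892 and 5836.5 UMIs.

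Icam2 (11:106377656-106388075, minus strand) encodes ICAM-2, a constitutive endothelial ligand of LFA-1. It stood at 269 CPM (264 to 275) in Vwf− and 269 CPM (245 to 294) in Vwf+ control cells, and at 514 CPM (507 to 521) and 481 CPM (471 to 492) in Maf LSEC-KO cells. Icam2 thus did not differ by Vwf in control beyond counting error, and the Maf LSEC-KO groups lay above both control groups. The log2 ratio to control was 0.93 (0.89 to 0.97) without and 0.84 with Vwf, which stayed under the 2-fold limit.

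Vcam1 (3:116109949-116129688, minus strand) encodes VCAM-1, the ligand of the integrin VLA-4. In order, its levels were 113 CPM (109 to 117) in Vwf− control, 250.3 CPM (245 to 255) in Vwf− Maf LSEC-KO, 298 CPM (290.2 to 307) in Vwf+ Maf LSEC-KO and 321 CPM (295 to 349) in Vwf+ control cells. The last 2 overlapped. Accordingly, the log2 ratio to control was 1.15 (1.09 to 1.20) in Vwf− cells and −0.11 (−0.23 to 0.02) in Vwf+ cells. Control Vwf+ cells exceeded Vwf− cells by a log2 ratio of 1.51 (1.37 to 1.64), and Maf LSEC-KO Vwf+ cells by 0.25 (0.20 to 0.30). A single cell held at most 104 of the 3527 Vcam1 UMIs in Vwf− control cells. A Vcam1 UMI was found in 35.9% of Vwf− control and 63.5% of Vwf− Maf LSEC-KO cells, against 10.3% and 3.33% of T/NK cell-like cells of the same libraries.

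E-selectin and P-selectin bind glycan ligands on leukocytes, and P-selectin is stored with von Willebrand factor in endothelial granules. Sele (1:164048234-164057677, plus strand) was rare. It gave 42 UMIs (1.35 CPM) in Vwf− control cells, 28 UMIs (16.4 CPM) in Vwf+ control cells, 147 UMIs (3.76 CPM) in Vwf− Maf LSEC-KO cells and 244 UMIs (14.5 CPM) in Vwf+ Maf LSEC-KO cells. Vwf+ cells were above Vwf− cells in both libraries, by log2 ratios of 3.60 (2.86 to 4.33) for control and 1.94 (1.64 to 2.25) for Maf LSEC-KO. Between the conditions the log2 ratio was 1.48 (0.98 to 2.01) in Vwf− cells, where both levels were under 10 CPM and 1 control cell held 14 of the 42 UMIs. In Vwf+ cells it was −0.18 (−0.75 to 0.44).

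Selp (1:164115264-164150026, plus strand) was the gene most tied to the Vwf gate. It gave 234 UMIs (7.51 CPM, 6.58 to 8.53) in Vwf− and 272 UMIs (159 CPM, 141 to 179) in Vwf+ control cells, against 32 UMIs (0.818 CPM, 0.560 to 1.16) in Vwf− and 711 UMIs (42.1 CPM, 39.1 to 45.4) in Vwf+ cells of Maf LSEC-KO. None of these intervals overlapped. Vwf+ cells exceeded Vwf− cells by log2 ratios of 4.41 (4.15 to 4.66) for control and 5.69 (5.18 to 6.25) for Maf LSEC-KO. Between the conditions it was −3.20 (−3.78 to −2.66) in Vwf− and −1.92 (−2.12 to −1.71) in Vwf+ cells. Both values depended on the clusters included. Outside the clusters led by vessel genes, described below, the ratio of Vwf− cells was −1.27 (−2.02 to −0.55), and in those clusters, which held 93.5% of the Selp UMIs of Vwf+ Maf LSEC-KO cells, the ratio of Vwf+ cells was −0.63 (−0.84 to −0.42). When all endothelial cells were summed, however, control had 15.4 CPM of Selp (14.1 to 16.8) and Maf LSEC-KO 13.3 CPM (12.3 to 14.3), which gave −0.21 (−0.38 to −0.05) on the log2 scale. A gap of several fold on each side of the gate therefore stood beside a small one over all cells, while the Vwf+ share differed between the libraries.

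**Figure D2:**
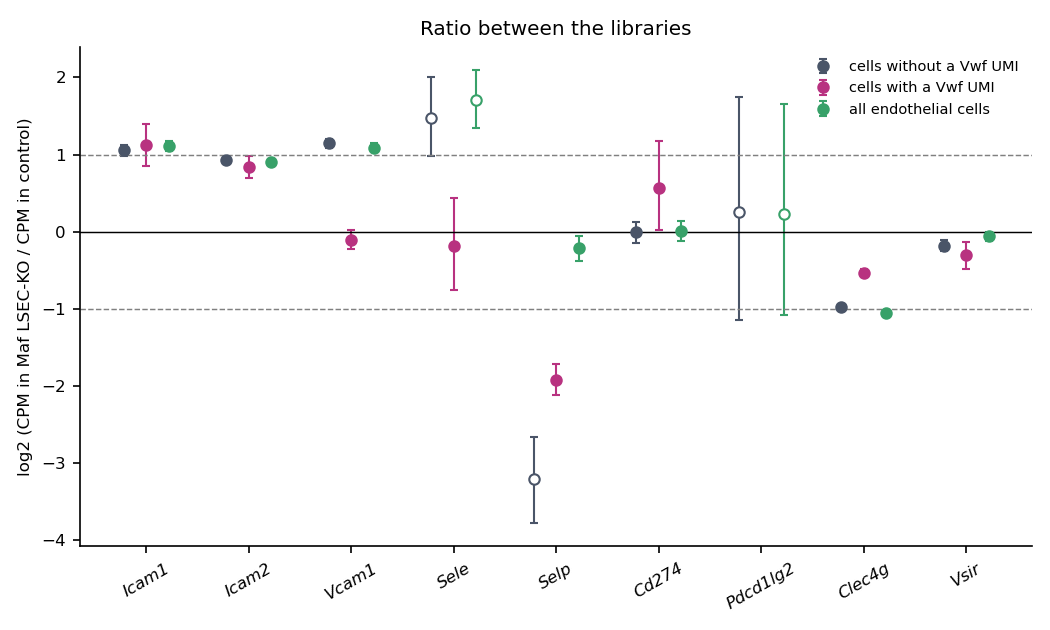
Log2 ratio of CPM, Maf LSEC-KO over control, for each gene in Vwf−, Vwf+ and all endothelial cells, with exact 95% intervals for counting error and dashed lines at 2-fold. Open points mark genes under 10 CPM in both groups, and Pdcd1lg2 is not drawn for Vwf+ cells, where control had 0 UMIs. Selp lies at −3.20 in Vwf− and −1.92 in Vwf+ cells but at −0.21 over all cells, and Vcam1 lies at 1.15 in Vwf− and −0.11 in Vwf+ cells.

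As Vwf marks larger vessels, the clusters of each library were read next. Clusters led by genes of larger vessels were control clusters 4 and 7 and Maf LSEC-KO clusters 6 and 8. They held 129 of the 155 Vwf+ control cells (83.2%) but 412 of the 1135 Vwf+ Maf LSEC-KO cells (36.3%), and 89.7% and 90.2% of all endothelial Selp UMIs. Of the Sele UMIs, they held 35 of 70 in control and 174 of 391 in Maf LSEC-KO. The Vwf gate thus drew its positive cells from different clusters in the libraries. Summed over all cells of the vessel-gene clusters, Selp was 67.6 CPM in control and 96.2 CPM in Maf LSEC-KO, a log2 ratio of 0.51 (0.34 to 0.68), the opposite direction to that on either side of the gate. Sele was 5.21 CPM in control, with a log2 ratio of 2.26 (1.73 to 2.83). Vcam1 had a ratio of 1.11 in and 1.13 (1.08 to 1.19) outside these clusters, so that the gap of Vcam1 between the conditions was similar in both parts when cells were not split by Vwf. The ratio of Icam1 was 1.20 (1.01 to 1.38) in and 1.07 (0.99 to 1.15) outside, and that of Icam2 was 0.57 (0.49 to 0.66) in and 0.97 (0.93 to 1.01) outside.

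A pair of clusters led by Rspo3 and Wnt9b had 502 control and 183 Maf LSEC-KO cells. The leading genes of both held Lhx6, Rspo3 and Wnt9b of the central vein list. They also held Wnt9b, Rspo3, Cdh13 and Thbd of the pericentral list. The control cluster had Clec4g at 2335 CPM, found in 99.4% of its cells, and Maf at 2957 CPM. Central vein and pericentral sinusoidal cells were thus not told apart in this pair. A Vwf UMI was found in 12.4% of the control and 83.6% of the Maf LSEC-KO cells of this pair. These clusters were drawn at the resolution of 0.3. At 0.5, 200 control Selp UMIs lay in an endothelial cluster of 453 cells with Lhx6, Ptgs1, Rspo3 and Wnt9b among its leading genes. Another 233 lay in a cluster of 70 cells led by stellate genes (Dcn, Reln, Colec11) and cholangiocyte genes (Krt19, Epcam, Spp1), with Rspo3. In Maf LSEC-KO, 614 Selp UMIs lay in a cluster of 228 cells with Rspo3 and Wnt9b. Its leading genes also held stellate genes (Dcn, Reln, Col1a1) and lymphatic genes (Ccl21a, Mmrn1). The part of such other cells in the Selp values was not tested. Selp stood among the 10 genes that led each cluster, so its high level there is part of what defines them. Its level was 90.9 CPM in control and 262 CPM in Maf LSEC-KO, a log2 ratio of 1.53 (1.34 to 1.71). Within the pair, however, Selp was lower in Maf LSEC-KO on each side of the Vwf gate, with 312 CPM (287 to 338) against 375 CPM (329 to 425) of control among Vwf+ cells and 5.31 against 46.2 CPM among Vwf− cells. Over all cells of the pair, Sele was 2.55 and 52.9 CPM, Icam1 54.2 and 187 CPM, and Vcam1 136 and 357 CPM. The Vwf+ cells alone had Vcam1 at 473 and 388 CPM, so that its order was also reversed there, and Icam1 at 125 and 201 CPM. Icam2 over all cells was at 322 and 339 CPM, a log2 ratio of 0.07 (−0.05 to 0.20). The other pair, led by the arterial gene Gja5 and by Adgrg6, had 245 and 371 cells and nearly level selectins, with Selp at 12.9 and 14.2 CPM and Sele at 11.4 and 11.2 CPM. In this pair Icam1 was 45.3 and 84.0 CPM, Icam2 257 and 506 CPM, and Vcam1 196 and 319 CPM in control and Maf LSEC-KO.

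**Figure D3:**
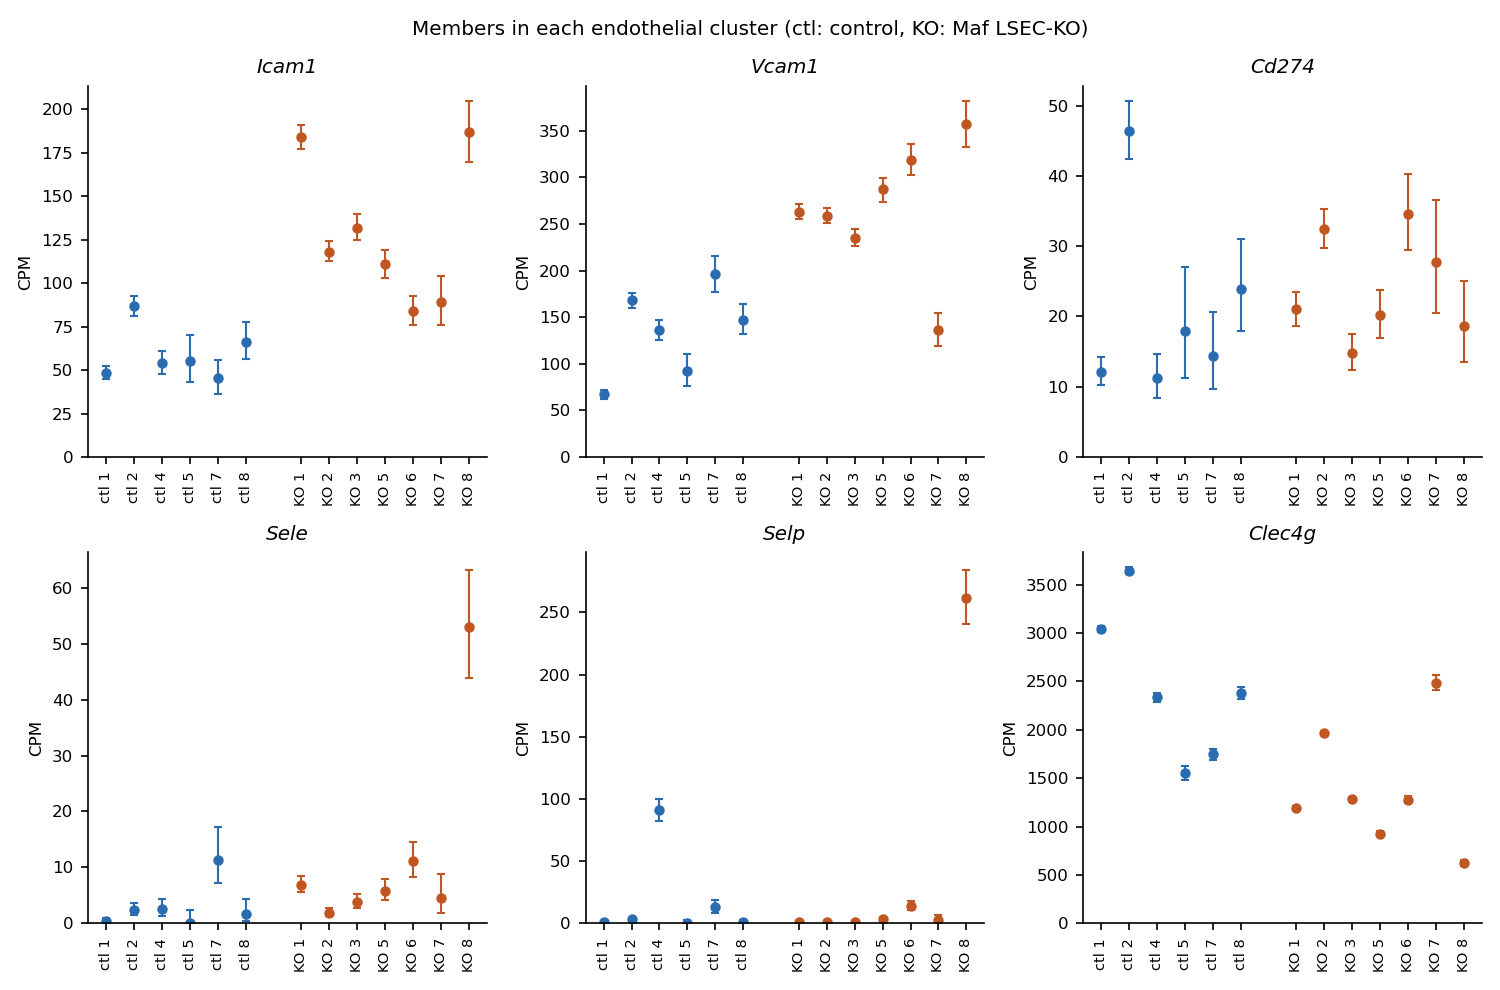
Level in CPM of Icam1, Vcam1, Cd274, Sele, Selp and Clec4g in each endothelial cluster of the control (ctl) and Maf LSEC-KO (KO) libraries, with exact Poisson 95% intervals and, at 0 UMIs, a bar up to the limit of 3 counts. Selp is concentrated in the clusters led by Rspo3 and Wnt9b, at 90.9 CPM in control and 262 CPM in Maf LSEC-KO, whereas Icam1, Vcam1 and Clec4g are above 0 in every cluster drawn.

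Outside the vessel-gene clusters, the largest cluster of control, cluster 1 (1383 cells), had Icam1 at 48.4 CPM, Vcam1 at 67.2 CPM and Icam2 at 275 CPM. The largest of Maf LSEC-KO, also numbered 1 (1363 cells), had 184, 263 and 420.1 CPM. These clusters were made in each library alone and do not hold matched cells. In the clusters led by interferon-stimulated genes, control cluster 2 (948 cells) and Maf LSEC-KO cluster 2 (1232 cells), Icam1 was 86.8 and 118 CPM, a log2 ratio of 0.45, and Vcam1 was 168 and 259 CPM, a ratio of 0.63. Icam2 in this pair was 249 and 581 CPM, a ratio of 1.22.

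Maf LSEC-KO cluster 7 (211 cells) kept Maf at 2319 CPM, whereas the other endothelial clusters of that library held at most 29.0 CPM. Its levels of Icam1 (89.3 CPM), Icam2 (259 CPM), Vcam1 (136 CPM) and Clec4g (2488 CPM) can be set beside those of all control endothelial cells, 63.0, 269, 124 and 2953 CPM. All Maf LSEC-KO endothelial cells together had 136, 504, 265 and 1424 CPM. Each of these genes was thus nearer to control in this cluster, although Icam1 was also low, at 84.0 CPM, in the Gja5-led Maf LSEC-KO cluster. Maf and the genes that move with it shaped this cluster, so the values are a description.

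The Vwf− Maf LSEC-KO cells were also split by their Maf UMIs, into 2455 cells with 0, 335 with 1 and 327 with at least 2. Icam2 was 532, 504 and 397 CPM in these groups, Vcam1 256, 252 and 206 CPM, Icam1 132, 137 and 112 CPM, and Clec4g 1488, 1534 and 1873 CPM. The cells with at least 2 Maf UMIs lay between the cells with 0 and the control for each of the 4 genes. Against control their log2 ratios were 0.84 for Icam1, 0.56 for Icam2, 0.87 for Vcam1 and −0.69 for Clec4g. The 3 groups had median depths of 14065, 18182 and 11543 UMIs, and the part of depth in these values was not tested.

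Along the lobule, each cell was placed by the share of periportal among periportal and pericentral landmark UMIs (6 genes each, none among the 9), cut into 4 quartiles of Vwf− cells from pericentral to periportal. The cuts differ between the libraries, so profiles are compared by shape. In control, Vcam1 was 108, 92.8, 116 and 144 CPM along the quartiles and Icam2 fell from 304 through 293 and 256 to 213 CPM. In Maf LSEC-KO, Vcam1 was 241, 259, 263 and 245 CPM, and Icam2 563, 528, 455 and 478 CPM. For both genes every Maf LSEC-KO quartile was above every control quartile.

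Icam1 had a flat profile in control (62.4, 60.5, 61.0 and 67.8 CPM) and stood at 129, 132, 108 and 137 CPM in Maf LSEC-KO. Selp in control fell from 28.6 CPM in the most pericentral quartile to 1.36, 0.48 and 0.156 CPM, and in Maf LSEC-KO it began at 1.74 CPM. Vsir rose towards the portal side in control, from 91.7 through 108 and 125 to 141 CPM, and was 73.1, 93.8, 146 and 122 CPM in Maf LSEC-KO. Cd274 was lowest in the most pericentral quartile of control, followed by 25.2, 25.5 and 28.7 CPM, and was 17.5, 23.7, 31.7 and 29.0 CPM in Maf LSEC-KO. The most pericentral quartile of each library was thus its lowest for Vsir and Cd274 and its highest for Icam2 and Selp. That quartile reached up to a periportal share of 0.357 in control and 0.833 in Maf LSEC-KO, so it does not mark the same position in the libraries.

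**Figure D4:**
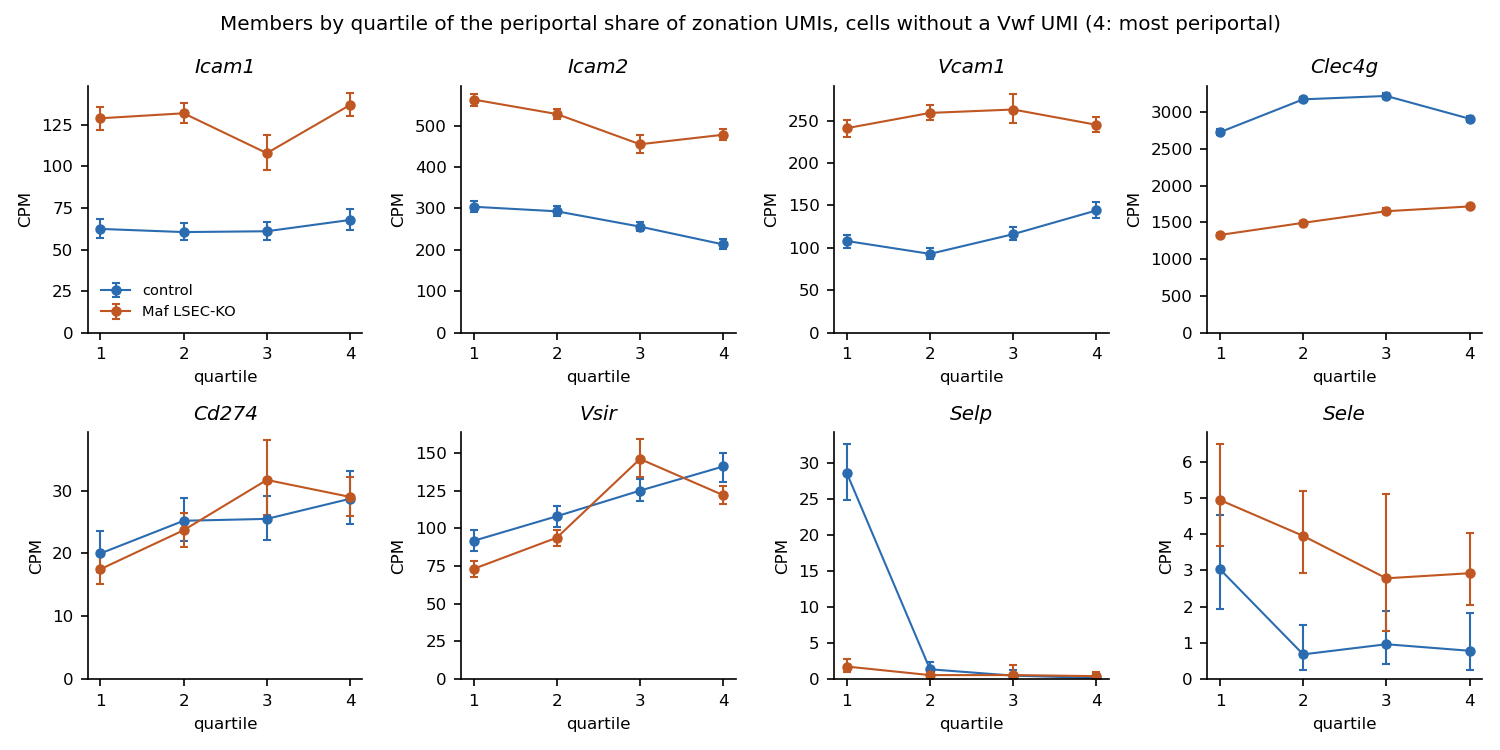
Level in CPM of 8 of the genes, all but Pdcd1lg2, in quartiles of the zonation score of Vwf− endothelial cells, from pericentral (1) to periportal (4), in the control and Maf LSEC-KO libraries with exact Poisson 95% intervals. The Maf LSEC-KO groups are uneven, with 755, 766, 203 and 1325 cells. Icam2 runs from 304 to 213 CPM in control and from 563 to 478 CPM in Maf LSEC-KO, and Selp is highest in quartile 1 of control at 28.6 CPM.

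The checkpoint ligand Cd274 (19:29367455-29388095, plus strand) encodes PD-L1, the ligand of PD-1 on T cells, and is known for its induction by interferon. Its level was 24.7 CPM (770 UMIs) in Vwf− control, 24.5 CPM (957 UMIs) in Vwf− Maf LSEC-KO, 24.4 CPM (411 UMIs) in Vwf+ Maf LSEC-KO and 16.4 CPM (28 UMIs) in Vwf+ control cells. The log2 ratio to control was −0.01 (−0.15 to 0.13) in Vwf− cells, an interval that holds no gap of 2-fold, and 0.57 (0.02 to 1.18) in Vwf+ cells. Within the clusters the libraries differed more. In the vessel-gene clusters Cd274 was 12.2 CPM in control and 29.3 CPM in Maf LSEC-KO, a log2 ratio of 1.26 (0.89 to 1.65), and outside them the ratio was −0.20 (−0.34 to −0.07). In the clusters led by interferon-stimulated genes it was 46.4 and 32.4 CPM, a ratio of −0.52, and in cluster 1 it was 12.1 and 21.0 CPM. The level of PD-L1 transcripts over all endothelial cells, 24.3 and 24.4 CPM, was thus an average of clusters that differed in opposite directions.

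Cd274 was also read in cells with and without a UMI of the chemokines Cxcl9 or Cxcl10, which interferon-gamma induces. In Vwf− control cells it was 29.1 CPM in 2234 cells with and 12.9 CPM in 1285 cells without such a UMI, a log2 ratio of 1.18 (0.88 to 1.48). In Vwf− Maf LSEC-KO cells it was 25.3 CPM in 2553 and 16.2 CPM in 564 cells, a ratio of 0.64 (0.25 to 1.05). Icam1 had ratios of 0.74 in control and 0.24 in Maf LSEC-KO, and Vcam1 ratios of 0.74 and 0.46. The cells with a chemokine UMI were deeper, with medians of 10690.5 against 7158 UMIs in control and 15926 against 6055 UMIs in Maf LSEC-KO, and the part of depth in these ratios was not tested.

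Pdcd1lg2 (19:29410919-29471161, plus strand), which encodes PD-L2, was near the limit of detection in endothelial cells. It gave 8 UMIs in Vwf− control, 0 in Vwf+ control, 12 in Vwf− Maf LSEC-KO and 4 in Vwf+ Maf LSEC-KO cells, or 0.257, 0, 0.307 and 0.237 CPM. The 0 UMIs in 155 cells allow up to 1.76 CPM by a limit of 3 counts, and no difference was detectable at this depth.

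Clec4g (8:3707064-3720651, minus strand) encodes LSECtin, a lectin of sinusoidal endothelium that restrains T cells. It was the most abundant of the 9 genes, with 3022 CPM (3003 to 3041) in Vwf− and 1691 CPM (1629.9 to 1754) in Vwf+ control cells, and 1535 CPM (1522 to 1547) and 1169 CPM (1153 to 1185) in Maf LSEC-KO cells. None of the 4 intervals overlapped. The log2 ratio to control was −0.98 (−0.99 to −0.96) without Vwf, just inside the 2-fold limit, and −0.53 with Vwf. Over all endothelial cells it was −1.05, past that limit. In the pair led by Rspo3 and Wnt9b Clec4g was 2335 CPM in control and 625 CPM in Maf LSEC-KO, a ratio of −1.90, a larger gap than in the Gja5-led pair (1746 and 1279.9 CPM). A Clec4g UMI was found in 98.4% and 96.5% of Vwf− cells, and also in 55.3% and 53.8% of B cell-like cells, which should lack it, at median depths of 7540 and 5977 UMIs. Its level in B cell-like cells was 2055 CPM in control and 351 CPM in Maf LSEC-KO, and in T/NK cell-like cells 536 and 85.4 CPM. Clec4g RNA was thus counted in barcodes of other cell types in both libraries, at a higher level in control, as in endothelial cells. Whether it was free RNA or came from doublets, and its part in the endothelial ratio, was not tested.

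Vsir (10:60346851-60372684, plus strand) encodes VISTA, a checkpoint protein found on myeloid cells and endothelium. Its level was 115 CPM (112 to 119) in Vwf− and 173 CPM (154 to 194) in Vwf+ control cells and 102 CPM (98.7 to 105) and 140.3 CPM (135 to 146) in Maf LSEC-KO cells. Vwf+ cells were higher in both libraries, by a log2 ratio of 0.59 in control and 0.46 in Maf LSEC-KO, and Maf LSEC-KO cells were slightly lower on each side of the gate, by −0.18 (−0.25 to −0.11) and −0.30. The highest levels were in the Gja5-led clusters, 226 CPM in control and 217 CPM in Maf LSEC-KO.

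Among Vwf+ cells, 8 of the 9 genes reached 10 CPM in either library. Of these, 1 was at least 2-fold higher in Maf LSEC-KO, Icam1, against 7.11% of 9345 genes, and 1 was lower, Selp, against 4.29%. In the control library, Vwf+ cells had 3 of 8 genes at least 2-fold above Vwf− cells, Vcam1, Sele and Selp, against 4.13% of 9018 genes, and 0 below, against 1.93%. In the Maf LSEC-KO library 2 of 8 were higher, Sele and Selp, against 1.37% of 9168 genes, and 0 were lower, against 0.207%. With Vwf+ and Vwf− cells summed, 2 of 7 genes were higher in Maf LSEC-KO, Icam1 and Vcam1, against 9.87% of 9312 genes, and 1 was lower, Clec4g, against 4.52%.

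Immune cells that came through the CD146 isolation were counted in each library. Immune-like clusters held 335 of 4736 control cells, 7.07% (6.36 to 7.84), and 645 of 5115 Maf LSEC-KO cells, 12.6% (11.7 to 13.6), or 9.12 and 15.2 per 100 endothelial cells. Kupffer/macrophage-like cells were the most numerous, with 219 (4.62%) and 390 (7.62%) cells. Neutrophil-like cells numbered 40 and 86, T/NK cell-like cells 29 and 60, and B cell-like cells 47 and 39. Monocyte-like cells, whose leading genes included Cd209a and MHC class II genes, numbered 70 in Maf LSEC-KO and formed no cluster in control. When immune cells were counted by their markers per cell and not by cluster, they were 123 in control and 312 in Maf LSEC-KO. Bead selection against an endothelial antigen can also set these shares, which was not tested, and with 1 library on each side no relation between immune cell numbers and adhesion genes can be tested.

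**Figure D5:**
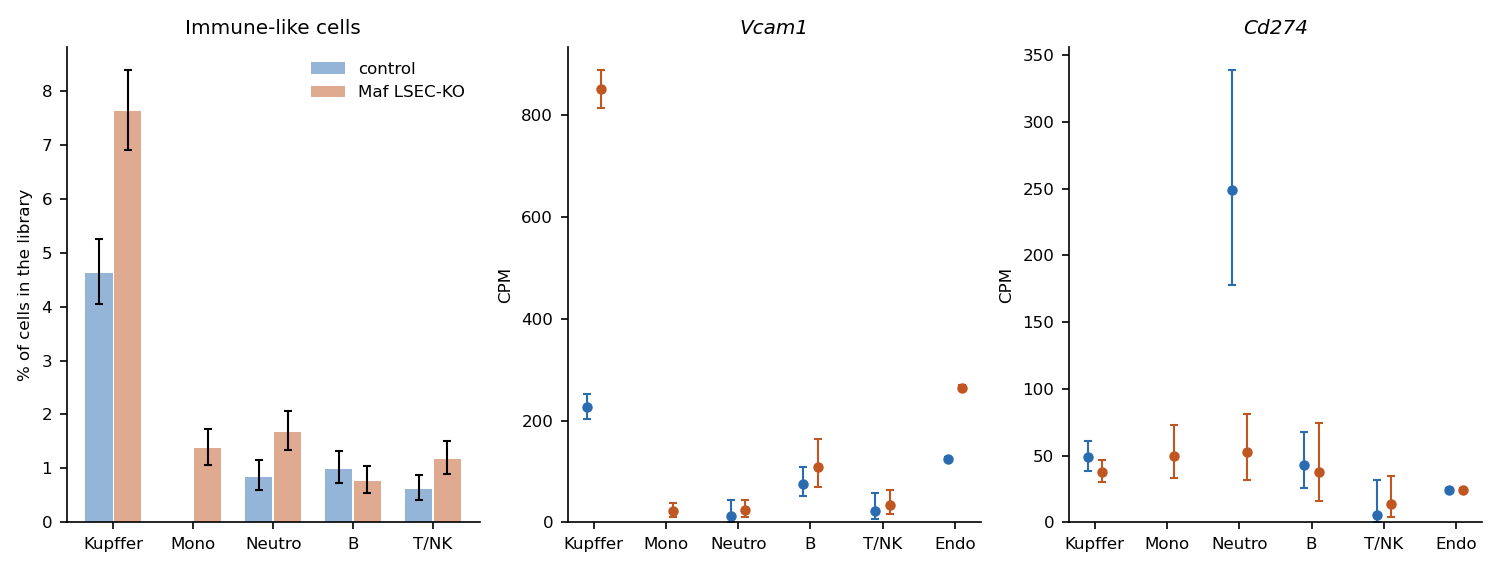
Left, share of each immune-like class in percent of the cells of the control and Maf LSEC-KO libraries, with exact binomial 95% intervals. Centre and right, Vcam1 and Cd274 in CPM in these classes and in endothelial cells (Endo), with exact Poisson 95% intervals. Kupffer/macrophage-like cells make up 4.62% and 7.62% and hold Vcam1 at 226 and 851 CPM, and the high Cd274 of control neutrophil-like cells (249 CPM) rests on 5 cells.

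Vcam1 was higher in Kupffer/macrophage-like cells than in endothelial cells of the same library. These cells held 226 CPM (203 to 252) in the control library, where they numbered 219, and 851 CPM (814 to 889.6) in the Maf LSEC-KO library, where they numbered 390, a log2 ratio of 1.91 (1.74 to 2.08). The endothelial levels were 124 and 265 CPM, and T/NK cell-like cells held 22.8 and 34.2 CPM. Of 14 endothelial markers, 7 were found in at least 50% of the control and 2 in at least 50% of the Maf LSEC-KO Kupffer/macrophage-like cells. The part of endothelial RNA in their Vcam1 ratio was not tested. Icam1 in the Kupffer/macrophage-like cells was 93.7 and 93.9 CPM, a ratio of 0.00 (−0.31 to 0.32). Cd274 in these cells was 48.8 and 37.7 CPM, a ratio of −0.37 (−0.84 to 0.09), and Vsir 121 and 152 CPM.

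Clec4g was 934 CPM in control and 205 CPM in Maf LSEC-KO Kupffer/macrophage-like cells, where RNA of endothelial origin and RNA of the macrophages cannot be told apart. Neutrophil-like cells held Vsir at 249 and 326 CPM. Their Cd274, 249 CPM in control, came from 40 UMIs in 5 of 40 cells, of which 1 cell held 17, and in Maf LSEC-KO from 20 UMIs in 12 of 86 cells. Pdcd1lg2 gave 9 UMIs (30.7 CPM) in T/NK cell-like and 6 UMIs (11.1 CPM) in monocyte-like cells of Maf LSEC-KO, and 6 UMIs (14.3 CPM) in control B cell-like cells.

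The receptors of these ligands were high in immune-like classes. Itgal, the LFA-1 subunit that binds ICAM-1 and ICAM-2, stood at 501 and 338 CPM in T/NK cell-like cells and at 1.37 and 2.29 CPM in endothelial cells of control and Maf LSEC-KO. Itga4, the VLA-4 subunit that binds VCAM-1, stood at 496 and 847 CPM in T/NK cell-like cells and at 633 CPM in monocyte-like cells. Itgam, the Mac-1 subunit, stood at 561 and 515 CPM in neutrophil-like cells. Selplg, which carries the glycans bound by P-selectin, stood at 679 and 659.6 CPM in neutrophil-like cells. Pdcd1, the PD-1 receptor of Cd274, gave 3 and 5 UMIs in the T/NK cell-like cells, which is too few to compare.

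Markers of Kupffer/macrophage, neutrophil, B and T/NK cells were also low but higher in Maf LSEC-KO endothelial cells, whereas some other immune lists went the other way. These values stand beside the results on the 9 genes. In Vwf− cells, the 10 Kupffer/macrophage markers summed to 66.8 CPM in control and 112 CPM in Maf LSEC-KO, the 9 neutrophil markers to 7.60 and 28.7 CPM, the 9 B cell markers to 6.67 and 23.5 CPM, and the 14 T/NK cell markers to 4.23 and 32.8 CPM, with Cd3g at 0 in control. In Vwf+ cells the sums were 84.8 and 105 CPM, 8.78 and 25.1 CPM, 7.02 and 44.7 CPM, and 4.68 and 22.6 CPM, with Marco at 0 in control. The 8 monocyte markers were also higher in Maf LSEC-KO, at 75.7 and 158 CPM in Vwf− and 372 and 392 CPM in Vwf+ cells. The 6 dendritic cell markers were lower, at 174 and 96.0 CPM in Vwf− and 103 and 88.7 CPM in Vwf+ cells. The 5 plasma cell markers were at 3.11 and 4.65 CPM in Vwf− but at 147 and 24.8 CPM in Vwf+ cells. The 147 CPM of Vwf+ control cells came from Sdc1 alone, which was also a leading gene of the Gja5-led endothelial clusters. Jchain, Mzb1, Igha and Derl3 were at 0 there. Without the cells that carried a UMI of Adgre1, Clec4f, Ptprc, Cd52, Acta1 or Arg1, the Vwf− ratios were 1.04 for Icam1, 0.93 for Icam2 and 1.10 for Vcam1. Over all Vwf− cells they were 1.06, 0.93 and 1.15. Of the immune markers summed above, only Adgre1 and Clec4f are among the genes of this filter. The part of immune RNA in the ratios was not tested.

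Other genes of the same pathways were read from lists that had been set by name. Of 22 further adhesion and junction genes, 16 reached 10 CPM among Vwf− cells. In Maf LSEC-KO, 2 of them were at least 2-fold higher and 4 lower, where 10.4% and 4.83% of all genes were, with a median log2 ratio of 0.08 against 0.13 for all genes. Those furthest apart were Cd34, a sialomucin of continuous endothelium (30.8 to 383 CPM), the junction gene Jam2 (348 to 75.6 CPM), Mcam (132 to 363 CPM) and the chemokine-binding receptor Ackr1 (41.2 to 16.9 CPM). Mcam encodes CD146, the antigen by which the cells were isolated.

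Of 24 further checkpoint and costimulatory genes, 7 reached 10 CPM. Of these, 2 were at least 2-fold higher and 0 lower, read against the same shares of all genes, with a median of 0.70. They were Tnfsf9, the ligand of 4-1BB (1.41 to 10.4 CPM), and Nectin2, a ligand of the T cell receptor TIGIT (88.1 to 192 CPM). Of 16 genes known for induction by cytokines, 15 reached 10 CPM and 1 was at least 2-fold higher, Socs3, a feedback inhibitor of cytokine signalling (38.1 to 90.7 CPM), with 0 lower and a median of 0.28, again beside 10.4% and 4.83% of all genes. Relb, an NF-kB subunit, with a log2 ratio of 0.82, and the chemokine gene Cxcl10, with 0.67, stayed under 2-fold.

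Among Vwf+ cells, 1 of 17 adhesion genes was higher in Maf LSEC-KO, Cd34, and 2 were lower, Jam2 and Alcam, where 7.11% of all genes were higher and 4.29% lower. Of 9 checkpoint genes 2 were higher, Tnfsf9 and Nectin2. Of 15 induced genes 2 were higher, Socs1 with a log2 ratio of 1.95 and Cxcl10 with 1.36. Between Vwf+ and Vwf− cells, Cd200, whose product restrains myeloid cells, was 0.802 CPM in Vwf− and 71.4 CPM in Vwf+ control cells, and its log2 ratio was 6.48 in control and 2.71 in Maf LSEC-KO. Alcam, a leukocyte adhesion molecule, had ratios of 3.93 and 2.09, and Lyve1, a marker of sinusoidal and lymphatic endothelium, ratios of −1.59 and −1.30.

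Likeness of pattern was measured as Pearson's r of log2(CPM + 1) over the 22 clusters of at least 50 cells from both libraries, which share depth and library, across 12688 genes. It is a description, and no p is given. Icam2 was most like Ppic (0.97), Emcn (0.96) and Serpinh1 (0.95), and Clec4g most like Arhgap23, Bmp6 and Ehd3 (0.96 each). Cd274 was most like the interferon-stimulated genes Oas1g (0.81), Trafd1 (0.81) and Trim30a (0.80). Selp was most like Mras (0.84), Myrip (0.81) and Bmp4 (0.80), and Sele most like St8sia2 (0.86), Chrm2 (0.81) and Apcdd1 (0.77). Icam1 was most like the non-coding RNAs Zfas1, Snhg4 and Snhg15 (0.86 each), Vcam1 most like Pde8a (0.85), Gdpd1 (0.83) and Colgalt1 (0.82), and Vsir most like Gla (0.75), Capn1 (0.74) and Eef2k (0.71). Among the 9 genes themselves, the pair with the highest r was Sele and Selp (0.68).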

How the data were processed

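Liver endothelial cells were profiled by 10x 3′ v3.1 scRNA-seq. The deposited values are UMI counts per gene and barcode, which the authors made with Cell Ranger 6.0.2 on mm10 without normalization, for barcodes of at least 500 UMIs. Background of empty droplets, which the study subtracted, remains in the counts. A minimum of 1500 UMIs and 750 genes per barcode was applied, followed by clustering within each library in Seurat 5.3.0 (R 4.3.3, 16 and 20 principal components, resolution 0.3). Scrublet (scanpy 1.11.5) marked 0 doublets by its automatic limit, so the highest scores were removed (225 and 308 cells). Endothelial clusters had Pecam1 and at least 7 of 14 markers in 50% of cells. Those led by at least 3 markers of another type (588 control and 181 Maf LSEC-KO cells) were kept out, a rule set after the data were seen. The hemoglobin genes Hba-a1, Hba-a2, Hbb-bs and Hbb-bt did not count in this rule. Control cluster 5 (407 cells) and Maf LSEC-KO cluster 1 (1363 cells) were led by at least 3 of them and stayed endothelial. Other clusters were called "-like" from at least 3 markers among their 50 leading genes.

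UMIs were summed by library and Vwf detection and given as CPM without mitochondrial and ribosomal protein genes, with exact 95% intervals (scipy 1.17.1) and a limit of 3 counts for a count of 0. Genes at least 2-fold apart were counted among those of at least 10 CPM in either group. The members, gene lists and tests were chosen with earlier results of these data known. Named genes were the 9 members, their receptors, and the 2 to 4 genes furthest apart in each list. Alternatives covered scaling (median of ratios, TMM in edgeR 4.0.16), filters, doublets, resolution, thinning to 3700 UMIs and the cells included. Steps were tested on simulated data. Sequences are from RefSeq, in which 7 of the 9 promoters were matched and Icam2 and Vcam1 were not.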

Additional observations from a re-analysis of the deposited data

Results flagged for a closer look

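The difference between Maf LSEC-KO and control ran in opposite directions in and outside the clusters led by vessel genes for 2 of the 9 genes, with intervals for counting error that did not reach 0. For Cd274 the log2 ratio was −0.20 outside and 1.26 in these clusters. For Vsir it was −0.09 outside and 0.26 in them. Within the separate cluster pairs, Vsir was not higher in Maf LSEC-KO, with −0.21 (−0.44 to 0.02) for the pair led by Rspo3 and Wnt9b and −0.06 (−0.22 to 0.10) for the pair led by Gja5. The Gja5-led clusters, where Vsir was highest, held 245 of the control and 371 of the Maf LSEC-KO cells of these clusters, against 502 and 183 in the other pair. Cd274 was higher in both pairs, by 0.73 (0.11 to 1.34) and 1.26 (0.68 to 1.88). The difference between the ratios was not tested, as each rests on 1 library per condition.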

How the results depend on the processing

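No paired analysis was possible because each condition is 1 library of pooled mice, and for the same reason no replicate could be left out. Of 551 ratios of single genes under the alternatives, 433 moved by no more than counting error and 118 moved further. A change of sign was seen in 24, none of them for a ratio counted as at least 2-fold apart in the main setting. One of these, Sele in Vwf+ cells, went from −0.18 to 1.27 without the vessel-gene clusters, where control had 1 Sele UMI. In Vwf− cells the log2 ratio stayed between 0.86 and 1.11 for Icam1, 0.73 and 0.98 for Icam2, 0.95 and 1.23 for Vcam1, and −1.18 and −0.89 for Clec4g over 17 alternatives, 1 of which sums Vwf+ and Vwf− cells. For Selp it lay between −3.53 and −1.27, and at −0.21 with the cells summed. The 2-fold limit lies close to the values of Icam1, Icam2, Vcam1 and Clec4g, so the counts depend on the scaling. The 2 genes higher in Vwf− Maf LSEC-KO cells became 0 with CPM over all genes and 1 with the median of ratios, with TMM and without the vessel-gene clusters. The 0 lower became 1, Clec4g, with each of these 4 settings, with the kept-out clusters put back, without control cluster 5 and with Vwf+ and Vwf− cells together, and 1, Selp, without the 10 CPM filter. In Vwf+ cells the 1 higher gene became 2 with the mean over cells, without the filter and without the vessel-gene clusters, and 0 with Vwf read after thinning, and the 1 lower became 2 without the vessel-gene clusters. Between Vwf+ and Vwf− control cells, the 3 higher became 1 without the vessel-gene clusters, and the 0 lower became 1 with the mean over cells, without cells of other types, without the filter, with at least 2 Vwf UMIs and with Vwf read after thinning. In Maf LSEC-KO the 2 higher became 0 at resolution 0.5, where a cluster of 228 cells with 614 Selp UMIs left the endothelial class, and without the vessel-gene clusters. The share of immune-like cells, 12.6% in Maf LSEC-KO, became 13.9% with doublets kept, 10.5% with at least 3000 UMIs, 11.5% with at most 10% mitochondrial UMIs and 6.10% by markers per cell. In control, 7.07% became 2.60% by markers and 8.08% with the kept-out clusters out of the total. Beyond what each setting leaves in or out, the cause was not tested. Settings on single clusters were chosen after the data were seen. Sele, Pdcd1lg2 and Selp in Vwf− cells are limited by their few UMIs, and the 155 Vwf+ control cells limit every value drawn from them.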
